A study of Arabidopsis thaliana with 8 samples.

Results

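The aquaporin genes of Arabidopsis thaliana were examined in rosette leaves: 35 loci, taken from the deposited table by locus identifier, of 27826 loci in all. By subfamily they are 13 plasma membrane intrinsic proteins (PIPs), 10 tonoplast intrinsic proteins (TIPs), 9 NOD26-like intrinsic proteins (NIPs) and 3 small basic intrinsic proteins (SIPs). Names follow the nomenclature of the family, written with a hyphen. All 35 loci were in the TAIR10.1 gene table, which held 34 of these names; it lists TIP3-2 as BETA-TIP. The older symbols of that table can mislead, since TIP2 there is TIP1-2 and PIP3 is PIP2-7.

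Affymetrix arrays measured 8 leaf RNA samples, 4 from wild type Col-0 plants and 4 from a mutant titled as having a depleted NAA50 level, whose ecotype is entered as animaa50. All plants grew on soil in short days for 7 weeks, and leaves were frozen 2 h after light onset. NAA50 is an N-terminal acetyltransferase, and the labels do not say how it was depleted. Nothing in the labels ties an array to its own plant or culture, so the p-values below reflect the scatter among these arrays, which may be technical.

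The label was checked first on the NAA50 transcript (AT5G11340). Its value was 4.23 to 4.75 on the wild type arrays and 10.24 to 10.52 on the arrays labelled NAA50-depleted, on the log2 scale. The transcript was thus higher where the label gives depletion, by 5.83 ± 0.14 (limma adjusted p = 3.47e-09). Differences are given throughout on the log2 scale with their standard error, and each rests on n = 4 arrays in each group. The label may refer to the protein, which was not measured, or the label or line may not be as described. The arrays do not settle this, so every direction below is that of the library labelled NAA50-depleted relative to wild type. All 8 arrays shared 1 distribution with a median of 2.73, and correlations across loci were 0.979 to 0.988 within a group and 0.951 to 0.967 between groups.

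Aquaporins are membrane channels through which water and some small solutes pass along their gradients. PIPs sit mainly in the plasma membrane, where PIP2 proteins are strong water channels and PIP1 proteins often need a PIP2 partner to reach that membrane. TIPs sit mainly in the vacuole membrane, the tonoplast, and several also pass ammonia or hydrogen peroxide. NIPs carry metalloids such as boric acid and arsenite, and SIPs are found in the endoplasmic reticulum. In leaves, PIPs of the veins and bundle sheath take part in the flow of water into the blade.

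In wild type leaves the family fell into bright and dim loci. Of the 35 loci, 16 lay above the array median of 2.73 on all 8 arrays, 16 on no array and 3 (PIP1-4, PIP2-3 and NIP7-1) on some. Among the bright loci, the wild type mean was 9.47 for PIP2-6, 9.14 for TIP1-2, 8.75 for TIP2-1 and 8.10 for TIP1-1. Their wild type arrays lay at or above percentile 96.9 of all loci. A value depends on the probes of a locus as well as on its transcript, so the order of the loci is not an order of transcript amounts. The antenna protein gene LHCB1.1 lay at 1.61 to 2.60 in these green leaves, below the array median, so a dim value does not show that a transcript was absent.

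The dim loci included several known mainly from other organs. TIP3-1 (wild type mean 1.70) and TIP3-2 (1.60) belong to the storage vacuoles of seeds. TIP1-3 (1.88), TIP5-1 (1.34), NIP4-1 (1.88) and NIP4-2 (2.14) are known from pollen, and NIP7-1 (2.48) from anthers. PIP2-4 (1.98), TIP2-3 (1.63) and NIP5-1 (2.15) are known mainly from roots. By their mean over the 8 arrays, 7 of 7 root, 6 of 7 seed and 5 of 5 pollen marker genes lay at or below the array median, and 5 of 6 mesophyll markers lay above it. The seed gene above it was CRC, at 2.66 to 3.25.

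**Figure D1:**
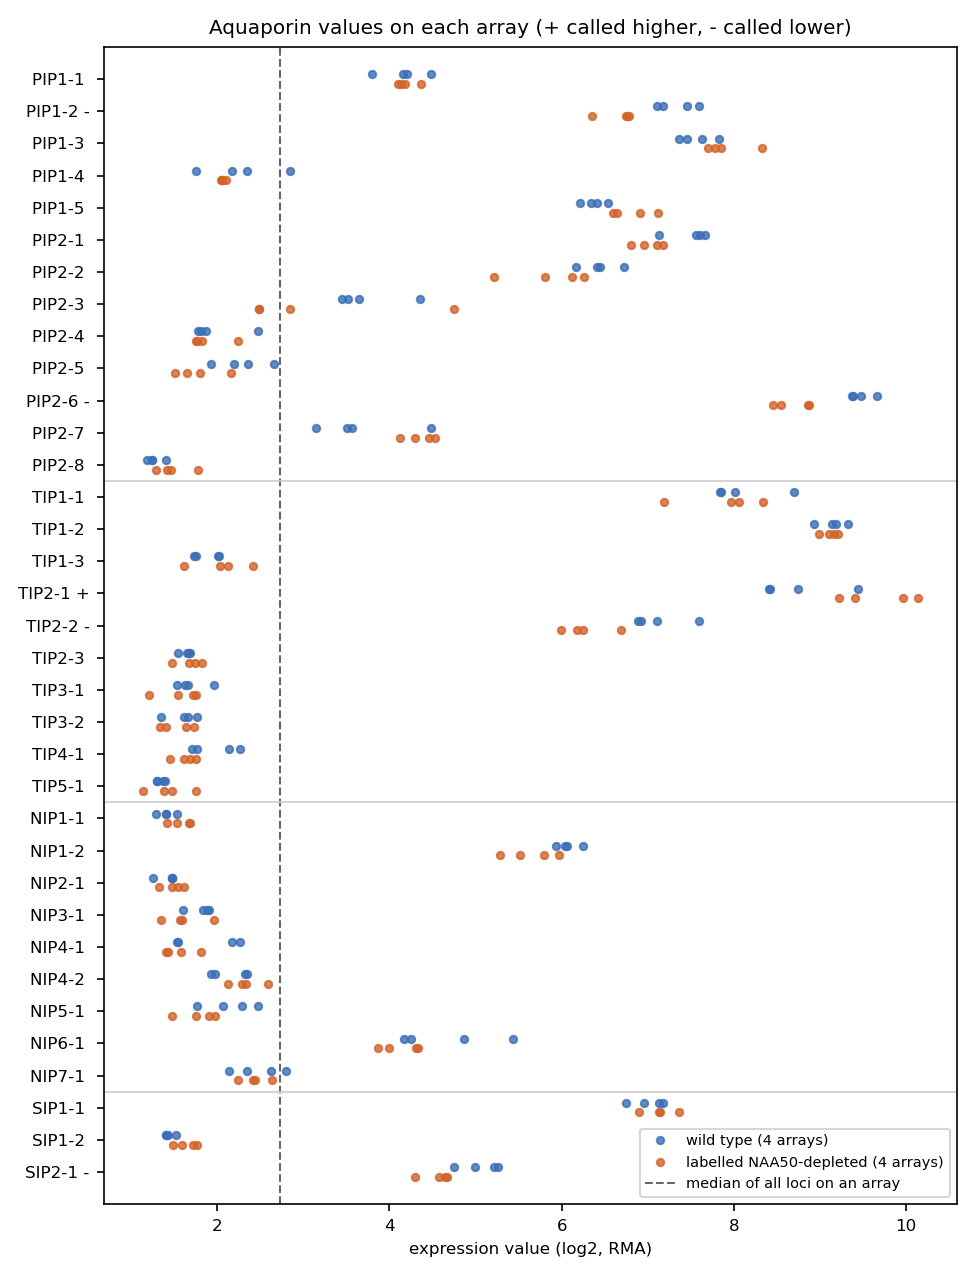
Expression value (log2, horizontal axis) of each of the 35 aquaporin loci on every array, with 4 wild type arrays in blue and 4 arrays labelled NAA50-depleted in orange. Grey lines part the subfamilies and the dashed line marks the array median of 2.73, which 16 loci exceed on no array.

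The comparison asked whether aquaporin transcripts differ between wild type leaves and those labelled NAA50-depleted. PIP2-6, PIP1-2, TIP2-2 and SIP2-1 were lower on the arrays labelled NAA50-depleted and TIP2-1 was higher, each at an adjusted p under 0.05 in limma over all loci. The 4 decreases are 11.4% of the 35 loci, where 7.58% of all loci were called lower. The single increase is 2.86% of the family, where 6.95% of all loci were called higher, and 14.5% of all loci were called in either direction. These shares are near the background, and counts as small as 4 and 1 leave them imprecise. In all, 1934 loci were called higher and 2108 lower, a split that was 2267 and 1559 after cyclic loess normalization, where 2 aquaporins were higher and 3 lower. No aquaporin was called with a difference of at least 2-fold, while 1.57% of all loci were called lower and 3.19% called higher by at least that much. After cyclic loess TIP2-1 passed that size, at 1.05 (limma adjusted p = 0.0176).

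All 5 called aquaporins were bright loci, as most calls on these arrays were. Of the 17 members with a mean above the array median, 4 were called lower and 1 higher, against 13.9% and 12.1% of all loci so selected. Of the 12 members with a mean above the 75th percentile, 3 were lower and 1 higher, against 16.9% and 13.8%. None of the 18 dimmer members was called, and their differences ran from -0.50 to 0.22. Over all 35, 21 differences were negative and 14 positive, against 15347 and 12479 of the 27826 loci. The median was -0.09, and that of all loci was -0.03. At an unadjusted p under 0.05 in limma there were 13 of the 35 members, against 7221 of the 27826 loci. Of the 13 members, 8 did not pass the adjustment.

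**Figure D2:**
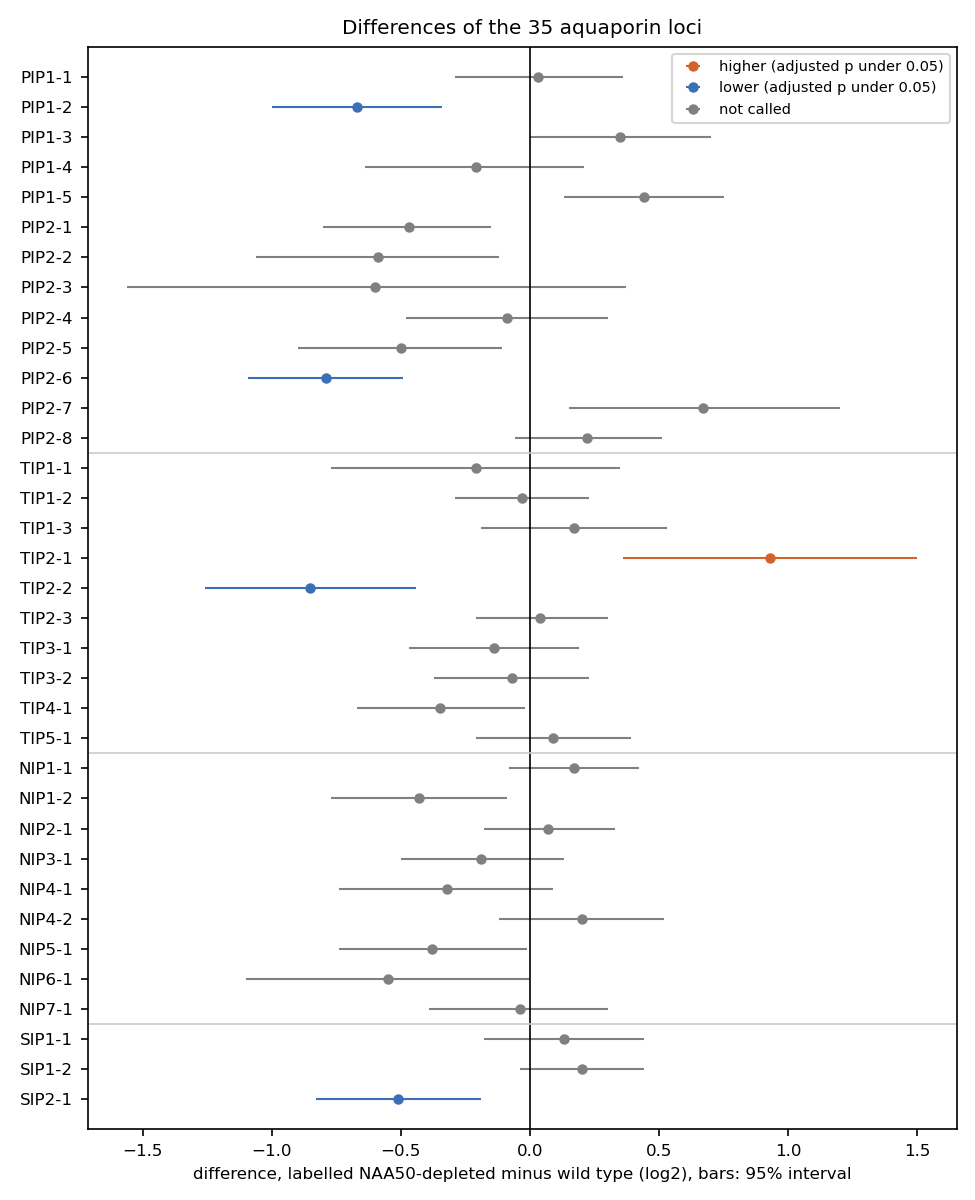
Difference between the group means (labelled NAA50-depleted minus wild type, log2, horizontal axis) with its 95% interval for each of the 35 loci, in orange where called higher, in blue where called lower and in grey otherwise. TIP2-1 at 0.93 is the only called increase and TIP2-2 at -0.85 the largest called decrease.

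The PIP1 group has 5 members, of which 1 fell. PIP1-2 (AT2G45960, also PIP1B), a leaf plasma membrane channel known to pass carbon dioxide as well as to aid water flow, had wild type values of 7.45, 7.11, 7.18 and 7.59. On the arrays labelled NAA50-depleted it was 6.35, 6.78, 6.76 and 6.75, so the groups did not overlap, and replicate 1 was the lowest. It fell by 0.67 ± 0.15 (limma adjusted p = 0.0108). Wild type was 1.59-fold higher, with a 95% interval of 1.27 to 2.00, and the call held at an adjusted p under 0.05 in all 14 alternative fits, of which 8 each leave out 1 array.

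The other PIP1 genes did not pass. PIP1-5 (AT4G23400) stood the other way, with wild type values of 6.21, 6.41, 6.54 and 6.34 against 6.64, 6.91, 6.60 and 7.12. Every labelled-depleted array was above every wild type array, a pattern found at 8.48% of all loci, yet the difference of 0.44 ± 0.14 had an adjusted p of 0.0631 (limma). It passed after cyclic loess normalization, at 0.56 (adjusted p = 0.0209 in limma), but was not called in 11 of 14 alternative fits. PIP1-3 differed by 0.35 ± 0.16 (adjusted p = 0.199), PIP1-1 by 0.03 ± 0.15 (0.927) and PIP1-4 by -0.21 ± 0.19 (0.557). PIP1-4, known to pass hydrogen peroxide in immune responses, was dim, so a change in it would be hard to see here.

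Of the 8 PIP2 genes, 1 fell. PIP2-6 (AT2G39010, also PIP2E), known from leaf veins, had wild type values of 9.66, 9.38, 9.48 and 9.37 and labelled-depleted values of 8.55, 8.45, 8.87 and 8.86. Every labelled-depleted array was below every wild type array. The fall was 0.79 ± 0.13 (limma adjusted p = 0.00218), with wild type 1.73-fold higher (95% interval 1.41 to 2.12). This was the only aquaporin called at an adjusted p under 0.01, and it was called at 0.05 in all 14 alternative fits.

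PIP2-1 (AT3G53420, also PIP2A), a water channel of leaf veins and guard cells that the kinase OST1 phosphorylates, had wild type values of 7.66, 7.13, 7.61 and 7.56. Its labelled-depleted values were 6.96, 7.11, 7.18 and 6.81, and the groups overlapped only through wild type replicate 2 and labelled-depleted replicate 3. The difference of -0.47 ± 0.15 just missed the threshold (limma adjusted p = 0.0514). Without wild type replicate 2 it was -0.59 and passed (adjusted p = 0.0153), but it was not called in 11 of 14 alternative fits. After cyclic loess it was -0.35 (adjusted p = 0.174 in limma). The 95% interval of the main difference, -0.80 to -0.15, excludes a fall of 2-fold.

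PIP2-2 and PIP2-3 are neighbours on their chromosome and closely related, and whether the probes tell their transcripts apart was not examined. PIP2-2 (AT2G37170) was 6.41, 6.17, 6.44 and 6.72 in wild type and 5.81, 6.12, 6.26 and 5.21 on the labelled-depleted arrays (-0.59 ± 0.21, adjusted p = 0.0983 in limma). PIP2-3 (AT2G37180), named RD28 for its response to desiccation, was 4.35, 3.52, 3.65 and 3.45 in wild type. On the labelled-depleted arrays it was 2.48, 2.48, 4.75 and 2.85. Labelled-depleted replicate 3 was therefore the highest of all 8 arrays while the other three lay below all wild type arrays. The difference was -0.60 ± 0.44 (adjusted p = 0.456) with that array and -1.13 (adjusted p = 0.00601) without it. PIP2-3 was not called in the other 13 of 14 alternative fits. Its within-group SD of 0.82 lay at percentile 99.4 of all loci.

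Of the other PIP2 genes, PIP2-7 and PIP2-8 had positive and PIP2-4 and PIP2-5 negative differences, none called. PIP2-7 (AT4G35100), a water channel whose delivery to the plasma membrane depends on SYP61 and SYP121, was 4.48, 3.15, 3.51 and 3.57 in wild type and 4.30, 4.46, 4.12 and 4.53 on the labelled-depleted arrays. Wild type replicate 1 stood among the labelled-depleted values. The difference was 0.67 ± 0.24 (limma adjusted p = 0.0918), and 0.94 without that array (adjusted p = 0.00276). PIP2-7 was not called in 12 of 14 alternative fits. PIP2-5 differed by -0.50 ± 0.18 (adjusted p = 0.0921) at values below the array median, PIP2-8 by 0.22 ± 0.13 and PIP2-4 by -0.09 ± 0.18. The median was -0.49 over the 8 PIP2 genes, 0.03 over the 5 PIP1 genes and -0.21 over all 13 PIPs.

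PIPs are known from guard cells and veins, so markers of those cells are given beside them. The counts are to be read against the 7.58% of all loci called lower and 6.95% called higher. Among loci with a mean above the array median these shares were 13.9% and 12.1%. There lay 4 of 6 guard cell, 4 of 8 vascular, 5 of 6 epidermis and 2 of 3 bundle sheath markers. The same 5 epidermis markers lay above the 75th percentile, where 16.9% of loci were called lower. Of 6 guard cell markers, 2 fell and none rose: the potassium channel KAT1 (-0.92 ± 0.21) and the anion channel SLAC1 (-0.60 ± 0.15). The mean of the 6 was 3.66 to 4.07 on wild type and 3.39 to 3.58 on labelled-depleted arrays. The 8 vascular markers gave no call, with means of 3.05 to 3.47 and 3.13 to 3.36. Of 6 epidermis markers, 2 fell (LTP1 by 0.84 and ABCG12 by 0.53), with means of 7.40 to 7.60 and 7.02 to 7.30. Of 3 bundle sheath markers, the sulfate transporter SULTR2-2 rose by 1.05 ± 0.17, while SCR differed by -0.29 ± 0.20 and the dim SCL23 by 0.17 ± 0.14, neither called. The list means of 3.23 to 3.72 and 3.77 to 3.92 therefore differ mainly through SULTR2-2. In whole leaves, fewer cells of a type and less RNA per cell cannot be told apart, and the part of these markers in the aquaporin results was not tested.

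Among the TIPs, 2 related genes changed in opposite directions. TIP2-1 (AT3G16240, also DELTA-TIP), a vacuolar channel that also passes ammonia, was 9.44, 8.42, 8.41 and 8.74 in wild type. On the labelled-depleted arrays it was 9.22, 9.96, 9.40 and 10.14. Wild type replicate 1 exceeded labelled-depleted replicates 1 and 3, so the groups overlapped. The rise was 0.93 ± 0.26 (limma adjusted p = 0.0342), or 1.90-fold.

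That call was not firm. It was lost in 7 of 14 alternative settings, among them the omission of replicates 2, 3 or 4 of wild type, or 2 or 4 of the labelled-depleted arrays, at 0.77 to 0.92 (adjusted p 0.0737 to 0.0985). It was also lost with a trended and robust variance model (adjusted p = 0.0706 in limma). Without wild type replicate 1 the difference was 1.16 (adjusted p = 0.00674). The direction was the same in all 14.

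TIP2-2 (AT4G17340), its relative in the same group of vacuolar channels, was 6.89, 6.92, 7.11 and 7.59 in wild type and 6.18, 5.99, 6.69 and 6.25 on the labelled-depleted arrays. Every labelled-depleted array lay below every wild type array, a pattern found at 10.4% of all loci. It fell by 0.85 ± 0.19 (limma adjusted p = 0.0104), so wild type was 1.80-fold higher (95% interval 1.35 to 2.40). The call held at 0.05 in all 14 alternative fits. Within an array, TIP2-1 minus TIP2-2 was 1.16 to 2.55 in wild type and 2.71 to 3.97 on the labelled-depleted arrays. This comparison was chosen after the values were seen and was not tested.

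The other 8 TIPs gave no call. TIP1-1 (AT2G36830) and TIP1-2 (AT3G26520), abundant vacuolar water channels of vegetative tissue, behaved unlike each other in spread. TIP1-2 was 8.93 to 9.32 in wild type and 8.99 to 9.21 on the labelled-depleted arrays, a difference of -0.03 with a 95% interval of -0.29 to 0.23. A change of more than 1.22-fold in either direction is outside that interval. TIP1-1 was 8.70, 7.84, 7.85 and 8.01 in wild type and 7.19, 8.34, 7.97 and 8.06 on the labelled-depleted arrays, a difference of -0.21 with an interval of -0.77 to 0.35. TIP4-1 differed by -0.35 ± 0.15 (limma adjusted p = 0.159), and TIP1-3, TIP2-3, TIP3-1, TIP3-2 and TIP5-1, all dim, by -0.14 to 0.17. The median over the 10 TIPs was -0.05.

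None of the 9 NIPs was called. NIP6-1 (AT1G80760), a boric acid channel known from the nodes of the shoot, showed the largest difference of the group. Its wild type values were 4.17, 5.43, 4.86 and 4.25 and its labelled-depleted values 3.87, 4.00, 4.31 and 4.33. The groups overlapped, the wild type arrays spread more widely than the others, and the difference was -0.55 ± 0.25 (limma adjusted p = 0.194). NIP1-2 (AT4G18910), known to carry aluminium malate, was 5.93 to 6.25 in wild type and 5.28 to 5.97 on the labelled-depleted arrays (-0.43 ± 0.16, adjusted p = 0.0978). It passed without labelled-depleted replicate 4, at -0.54, but was not called in the other 13 of 14 alternative fits.

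The remaining 7 NIPs had means below the array median. NIP5-1, the boric acid channel of root uptake, differed by -0.38 ± 0.17 (limma adjusted p = 0.181). NIP4-1 differed by -0.32 ± 0.19 and its chromosome neighbour NIP4-2 by 0.20 ± 0.14. NIP1-1 and NIP3-1, both known to pass arsenite, differed by 0.17 ± 0.11 and -0.19 ± 0.14. NIP2-1, a lactic acid channel of oxygen-starved roots, differed by 0.07 ± 0.12, and NIP7-1 by -0.04 ± 0.16. The NIP median was -0.19.

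Of the 3 SIPs, SIP2-1 (AT3G56950) fell. It was 4.75, 4.99, 5.21 and 5.26 in wild type and 4.57, 4.64, 4.30 and 4.67 on the labelled-depleted arrays, without overlap. The fall was 0.51 ± 0.14 (limma adjusted p = 0.036), with wild type 1.42-fold higher (95% interval 1.14 to 1.77). The call was lost in 8 of 14 alternatives, with differences of -0.54 to -0.43. These included cyclic loess (adjusted p = 0.0711 in limma) and the omission of replicates 2, 3 or 4 of wild type, or 1, 2 or 3 of the labelled-depleted arrays (adjusted p 0.0592 to 0.0997). The water channels SIP1-1 (6.75 to 7.18 in wild type, 6.90 to 7.36 on labelled-depleted arrays) and SIP1-2 (dim) differed by 0.13 ± 0.14 and 0.20 ± 0.11. The SIP median was 0.13.

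Most members' differences were of ordinary size for their level. The loci were sorted by mean value into 10 bins of 2781 to 2784 loci. In the brightest bin, which held 10 aquaporins, the 5th and 95th percentiles of the differences of all loci were -0.89 and 1.33, so PIP2-6, PIP1-2, TIP2-1 and TIP2-2 all lay inside. Of the 35 members, 32 lay between these percentiles of their own bin. The 3 outside were the dim PIP2-5, NIP4-1 and NIP5-1, each below the 5th percentile and none called. How many loci were called rose with level, from 0.323% in the dimmest bin to 33.5% in the brightest.

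**Figure D3:**
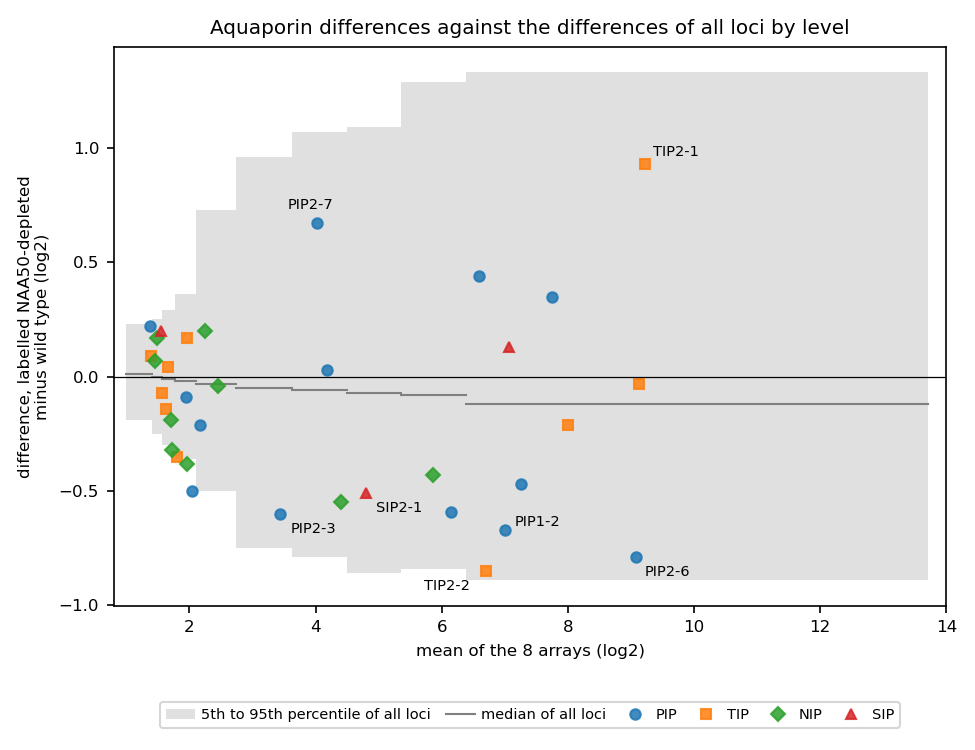
Difference between the groups (labelled NAA50-depleted minus wild type, log2, vertical axis) against the mean of the 8 arrays (log2, horizontal axis) for the 35 aquaporins, with a symbol for each subfamily. The grey band spans the 5th to 95th percentile of all loci in each of 10 bins by level and 32 of the 35 aquaporins lie inside it.

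Related members were then set against each other within each array, in 11 pairs, which asks whether both members changed alike. In 4 pairs the groups did not overlap, each with an exact two-sided permutation p of 0.0286, the smallest that 4 arrays against 4 allow. How often pairs of other loci separate was not measured. Single loci were separate at 8.48% of all loci with the labelled-depleted arrays above and at 10.4% with them below. PIP1-2 and TIP2-2, separate on their own, are members of these pairs. After adjustment over the 11 pairs none passed (adjusted p = 0.0786 for each of the 4, exact permutation test). After cyclic loess NIP1-1 and NIP1-2 overlapped (exact permutation p = 0.0571), the other 3 pairs stayed separate, and none passed (lowest adjusted p = 0.105). With so few of the 11 pairs at the smallest p, none could pass this adjustment in either setting, whatever the size of its change. The adjusted p-values therefore do not show that the members changed alike. TIP2-2 moved against TIP2-3 by -0.89, with the log2 difference between them 5.49 ± 0.39 in wild type and 4.60 ± 0.28 on labelled-depleted arrays (SD, n = 4). PIP1-1 moved against PIP1-2 by 0.71, NIP1-1 against NIP1-2 by 0.60 and PIP1-3 against PIP1-4 by 0.56. TIP2-3, NIP1-1 and PIP1-4 are dim, where a change is hard to see, and the part of their level in these pairs was not tested.

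The adjoining genes PIP2-2 and PIP2-3 differed in their change by 0.01, with within-array differences of 2.70 ± 0.50 in wild type and 2.71 ± 0.97 on labelled-depleted arrays (SD, n = 4, exact permutation p = 1.0). The wide spread of PIP2-3 means that unequal change of this pair was not measurable here. The adjoining NIP4-1 and NIP4-2 differed by -0.52 (exact permutation p = 0.114), and the other 5 pairs by -0.18 to 0.45 (exact permutation p 0.143 to 0.857).

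**Figure D4:**
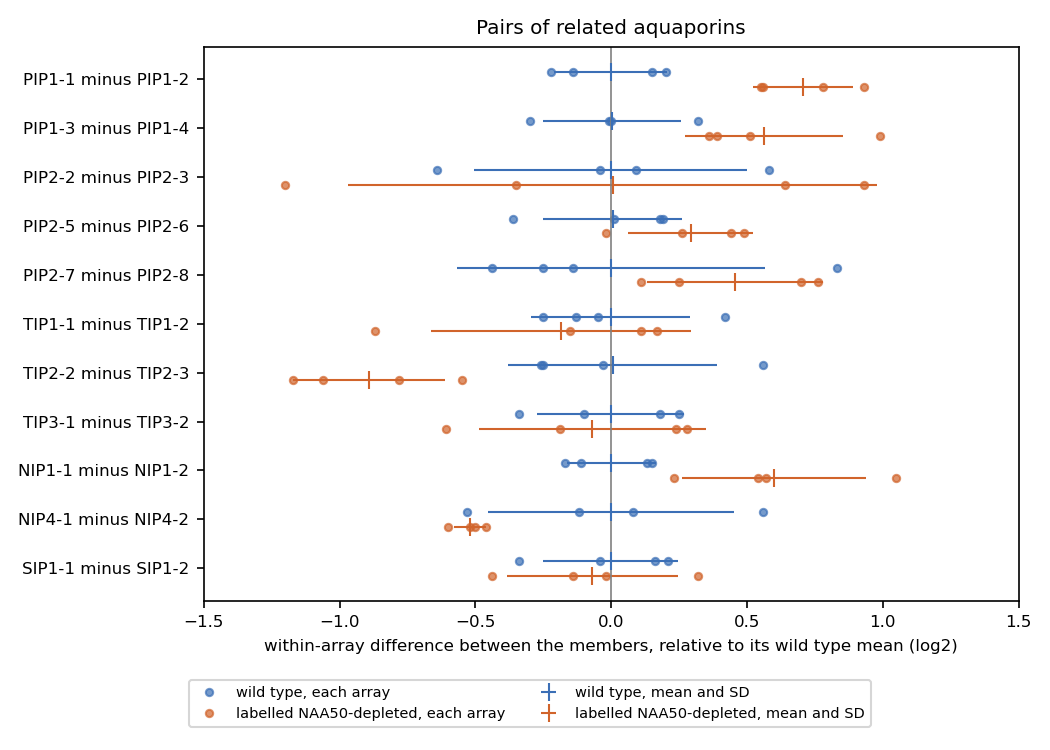
Within-array difference between the 2 members of each of 11 pairs, relative to the wild type mean of that pair (log2, horizontal axis), with a point for each array and bars for mean and SD (n = 4 per group). The groups are separate in 4 pairs, with the largest change in TIP2-2 minus TIP2-3.

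The genes next to the called members on the chromosome were also examined. Of the 10 neighbours of the 5 called members, 1 was called, where 14.5% of all loci were called. It was PnsB3, which lies beside TIP2-1 and differed by -0.70, opposite to the rise of TIP2-1. The neighbours of PIP2-6 differed by -0.05 and -0.34, those of PIP1-2 by -0.28 and -0.48, those of TIP2-2 by -0.25 and -0.13 and those of SIP2-1 by -0.02 and 0.12.

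Proteins that act on aquaporins were examined next, with 17 genes of their regulation and trafficking. Of these 6 rose and none fell in limma, and the median was 0.14. The 6 are 35.3% of the list, against 6.95% of all loci called higher and 12.1% of loci above the array median, where 14 of the 17 lie. Of the 11 above the 75th percentile 4 rose, where 13.8% of loci were called higher. This list and the pump and boron exporter lists below were chosen with earlier results of these data known. No such share was tested. At an adjusted p under 0.05 the count of increases was 6 in each of the 14 alternative fits, and 1 member was called lower without wild type replicate 4. The ubiquitin ligase gene RMA2, of a family whose pepper member promotes the breakdown of PIP2-1, had wild type values of 3.28, 3.59, 4.32 and 3.99 and labelled-depleted values of 5.44, 5.36, 4.69 and 5.05. It rose by 1.34 ± 0.23 (adjusted p = 0.00231). The receptor kinase BAK1, a co-receptor of immune and brassinosteroid signals, rose by 0.97 ± 0.17 (adjusted p = 0.00305).

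Other members of this list bear on single aquaporins. OST1, the kinase that phosphorylates PIP2-1, rose from 3.67 to 3.96 in wild type to 4.19 to 4.73 (adjusted p = 0.015). SYP121, a membrane fusion protein that binds PIP2-7, rose from 4.94 to 5.61 to 5.72 to 6.28 (adjusted p = 0.00843), and RMA3 from 5.95 to 6.44 to 7.08 to 7.28 (adjusted p = 0.00095). The sixth increase was AT3G02880 (QSK1), a receptor-like kinase gene, at 4.64 to 5.34 in wild type and 5.56 to 6.21 on labelled-depleted arrays. The genes of this paragraph were chosen for description after their values were seen. SYP61 (adjusted p = 0.176) and TSPO, which takes PIP2-7 to degradation and lay below the array median on all arrays, were not called. Nor were SIRK1, which differed by -0.53 ± 0.18 (limma adjusted p = 0.0828), and the dim RMA1, by 0.26 ± 0.14 (adjusted p = 0.288).

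Proton pumps set the gradients of the same membranes. Of 7 plasma membrane pump genes, 2 fell and none rose in limma, with a median of -0.25. The 2 are 28.6% of the list, against 7.58% of all loci called lower and 13.9% of loci above the array median, where 6 of the 7 lie. AHA2 changed from 6.95, 7.32, 6.77 and 6.72 in wild type to 5.44, 5.69, 5.55 and 5.85, a difference of -1.31 ± 0.15 (adjusted p = 0.000206). AHA11 differed by -1.07 ± 0.17 (adjusted p = 0.00144), whereas AHA1 was 9.08 to 9.23 in wild type and 8.78 to 8.98 on labelled-depleted arrays and was not called (adjusted p = 0.156).

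Of 9 genes of the vacuolar proton pumps, 3 fell and none rose in limma, with a median of -0.37. The 3 are 33.3% of the list, against 7.58% of all loci called lower and 16.9% of those above the 75th percentile, where all 9 lie. VHA-a1, whose protein is known from the trans-Golgi network rather than the tonoplast, differed by -0.61 ± 0.11 (adjusted p = 0.00312). VHA-A, the catalytic subunit, differed by -0.41 ± 0.11 (adjusted p = 0.027), and VHA-B1, a regulatory subunit, by -0.37 ± 0.11 (adjusted p = 0.0459). The other 6 were not called. Among them were AVP1 (-0.38 ± 0.12, adjusted p = 0.0537), VHA-a2 (-0.41 ± 0.23, adjusted p = 0.304) and VHA-a3 (-0.15 ± 0.12, adjusted p = 0.494). The count of 3 became 1 after cyclic loess, without wild type replicate 3 or 4 and without labelled-depleted replicate 2 or 3, and 2 without any other single array. None of 7 boron exporter genes, set beside the boric acid channels NIP5-1 and NIP6-1, was called, where 14.5% of all loci were. Of the 7, 5 had means at or below the array median, BOR4 among them. At that level 422 of 13892 loci were called. BOR4 differed most, by 0.47 ± 0.20 (adjusted p = 0.155).

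Aquaporin values also varied between arrays of one group. Among the 17 members with a mean above the array median, wild type replicate 1 was the highest of its group for 9 (52.9%), where it was highest for 30.0% of all loci so selected. Wild type replicate 2 was the lowest of its group for 9 (52.9%), against 24.8% of all loci. The median deviation of these members from their group mean was 0.17 on wild type replicate 1 and -0.22 on wild type replicate 2. Among the members with the widest spread, TIP2-1, TIP1-1, PIP2-7 and PIP2-3 were highest of wild type on replicate 1, whereas NIP6-1 was lowest there. Their within-group SDs, pooled over both groups, of 0.46, 0.45, 0.42, 0.82 and 0.45 compare with a median of 0.22 over all loci of that level. In the same order the SDs were 0.49, 0.41, 0.57, 0.41 and 0.59 in wild type. On labelled-depleted arrays they were 0.44, 0.49, 0.18, 1.09 and 0.23, so TIP1-1 and PIP2-3 spread more widely there. Without wild type replicate 1, 2 aquaporins were called higher, and without wild type replicate 2, 3 or 4 none was.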

How the data were processed

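The authors deposited 1 table of log2 values summarized per locus by RMA, the tool named in the submitters' processing notes. That method subtracts background, gives all arrays the same distribution and takes logarithms, whose base was taken as 2 because no source used here states it. Its version, the chip definition and the genome build are not given in the sources used, and no coordinates or sequences are printed. Groups and replicate numbers came from the sample titles, and 0 columns were left out. From the deposited values, limma 3.58.1 in R 4.3.3 (lmFit and eBayes, group as the only term, no filter on dim loci) was fitted to all 27826 loci. Two-sided p-values were adjusted over all loci with the Benjamini-Hochberg method, at a threshold of 0.05. Pairs were tested with an exact permutation test in scipy 1.17.1.

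All members were named. Every array's value was given for called members, or for the largest difference of a class without a call, and up to 2 increases and 2 decreases from each other list. Further members were given after their values were seen. The members and lists were chosen with earlier results of these data known. The alternatives were the replicate block, median centring, cyclic loess, a filter at the 25th percentile on 4 arrays (passed by 28 aquaporins), a trended and robust variance, array weights, each array left out and a threshold of 0.01. Promoter motifs were not analysed here.

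In simulated data with all 27826 loci, changes of 0.5, 1 and 2 on the log2 scale were put on 200 loci above the array median. They were recovered for 13.2%, 72.7% and 97.0% of the loci so changed. On the real arrays 4042 loci were called, and the adjustment is stricter where fewer loci change. These shares may therefore be lower than those of the main fit. The number of arrays limits the precision, and changes of the size of most aquaporin differences can be missed.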

Additional observations from a re-analysis of the deposited data

Results flagged for a closer look

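Values of single arrays that stood far from the other three of their group, by Dixon's ratio at the 95% level, were found in 6 of 84 groups of 4 arrays, and chance marks about 1 in 20. PIP2-3 was 4.75 on labelled-depleted replicate 3, where the others were 2.48 to 2.85. PIP1-2 was 6.35 on labelled-depleted replicate 1, below the 6.75 to 6.78 of the others, and its call held without that array. PIP2-4 was 2.47 on wild type replicate 2 (others 1.78 to 1.87) and 2.24 on labelled-depleted replicate 4 (others 1.75 to 1.82). NIP2-1 was 1.25 on wild type replicate 2, where the others were all 1.47. AHA11 was 6.13 on wild type replicate 2, below 6.57 to 6.64.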

How the results depend on the processing

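PIP2-6, PIP1-2 and TIP2-2 were called lower at an adjusted p under 0.05 in all 14 alternative fits. No called aquaporin changed direction. The calls of 9 members depended on the setting, TIP2-1 and SIP2-1 by loss and 7 others by gain. The count of aquaporins called higher, 1, was 0 with the replicate block and at an adjusted p under 0.01, 2 after cyclic loess and with array weights, and 0 to 2 with single arrays left out. The count called lower, 4, was 1 at an adjusted p under 0.01 and 3 to 6 with single arrays left out. At the threshold of 0.01, 1228 loci in all were higher and 1010 lower, and cyclic loess gave 2267 and 1559. Vacuolar pump genes called lower, 3, were 1 with the replicate block, 1 after cyclic loess and 1 to 2 with single arrays left out. Regulators called lower were 0 to 1 with single arrays left out. The SIP median was -0.19 with the filter on dim loci, which removed SIP1-2. Same-numbered arrays did not deviate together (r of -0.05, 0.02, -0.03 and 0.04), and the labels do not say whether the numbers pair the samples. With the replicate block 1781 loci were called higher and 1764 lower, and TIP2-1 (adjusted p = 0.0586) and SIP2-1 (adjusted p = 0.0646) were not called in limma. The cause of these changes was not tested. Signal over background was not measured, which limits what the 18 dim members can show.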
